A study of Rattus norvegicus with 2 samples.

Results

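The enzymes that write and remove DNA methylation were followed in the hypothalamic paraventricular nucleus of adult rats exposed to a glucocorticoid before birth. The set comprised 9 genes chosen by symbol: the DNA methyltransferase genes Dnmt1, Dnmt3a, Dnmt3b and Dnmt3l, the dioxygenase genes Tet1, Tet2 and Tet3, the glycosylase gene Tdg and the methylation cofactor gene Uhrf1. They were represented by 12 of 30356 non-control probes with a usable spot on both arrays, and they are 9 of 17573 genes that could be named. Of the 9 genes, 6 gave a signal well above background on both arrays, and 3 did so on neither.

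RNA came from male Sprague Dawley rats at 12 weeks of age. The mothers of the control offspring had received vehicle, and those of the exposed offspring had received dexamethasone, a synthetic glucocorticoid, at 200 µg/kg during the third trimester. Each group had 1 array, with no replicate, so each difference is one between these 2 arrays: it carries no p-value, and variation among animals is unknown. The labels do not say whether RNA was pooled. The arrays are called the control and the exposed array. They occupied separate places on 1 slide, and any effect of the place cannot be told apart from that of the treatment. Their regional markers differed: 10 of 13 measured forebrain markers from outside the hypothalamus were past 2-fold higher in the exposed array, and their values are given beside the results.

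Cytosine methylation is set on new sites by the de novo methyltransferases DNMT3A and DNMT3B, for which the catalytically inactive DNMT3L acts as a cofactor in germ cells. DNMT1 copies the marks to the new strand after replication, guided to half-methylated DNA by UHRF1. TET dioxygenases oxidise methylcytosine, and the glycosylase TDG excises oxidised forms so that base excision repair can restore cytosine. The title of the series ties hypertension programmed before birth to DNA methylation at an angiotensin receptor gene. Methylation itself was not analysed here, so what follows concerns the transcripts of the enzymes.

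The readout is a 60-base probe, and 3 members had a pair of probes: Dnmt3b, Tet2 and Tet3. The other 6 had 1 probe each, and every member probe was printed as 1 spot per array. The Dnmt3b and Tet2 pairs are shown because the main difference rests on 1 probe of the former, while the latter is as close to a repeated measurement as the set contains. In the Dnmt3b sequences, capitals mark stop triplets (TAA, TAG or TGA) in any reading frame. In the Tet2 sequences they mark the 29 bases common to both probes.
Dnmt3b upstream probe, A_64_P004730, whole: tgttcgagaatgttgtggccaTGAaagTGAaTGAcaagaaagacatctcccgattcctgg
Dnmt3b downstream probe, A_44_P287958, first 30 bases: accttttgctcTGAttacaggtgctatttt
Tet2 probe A_64_P120280, whole: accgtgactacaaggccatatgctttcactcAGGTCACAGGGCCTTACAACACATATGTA
Tet2 probe A_43_P22048, whole: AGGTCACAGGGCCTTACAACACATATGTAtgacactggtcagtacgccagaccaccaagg

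Both Dnmt3b probes carry the accession NM_001003959 and lie on the plus strand of rn4, at chr3:144060143-144060202 and chr3:144069022-144069081, with 8819 bases between them. The upstream probe has 1 of 3 reading frames free of a stop triplet and a GC content of 45%. The downstream probe has 0 of 3 such frames and a GC content of 36.7%. Exon and UTR boundaries of the rn4 gene model were not used here. The Tet2 probes lie on the minus strand at chr2:231016073-231016132 and chr2:231016042-231016101.

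**Figure D1:**
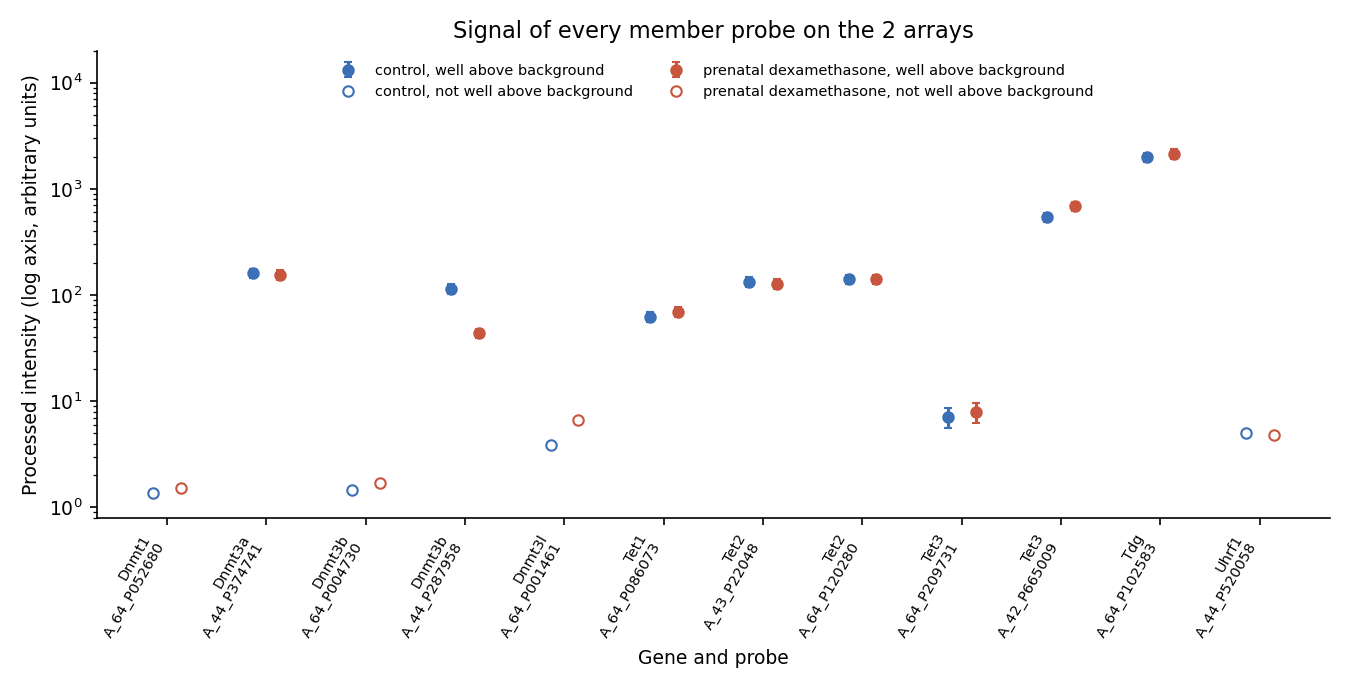
Processed intensity (log axis, arbitrary units) of each of the 12 member probes on the control array (blue) and the exposed array (red, prenatal dexamethasone). Bars are the scanner software's error for the spot, and open circles are spots not well above background; the downstream Dnmt3b probe stands at 115 and 43.8, while the other filled pairs lie close together.

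Dnmt3b, a de novo methyltransferase, was the member with the largest difference between the arrays, read on its downstream probe alone. Its downstream probe gave a processed intensity of 115 ± 11.6 in the control array and 43.8 ± 4.64 in the exposed array, where the error is the scanner software's estimate for 1 spot. The signal was thus lower after prenatal dexamethasone, and the error ranges of the 2 spots did not overlap. After each array was scaled to the 75th percentile of its probes, the signal was 2.76-fold lower in the exposed array, a log2 difference of -1.47 with a combined scanner error of 0.21.

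The other Dnmt3b probe did not give a second reading of this difference. Its processed intensity was 1.47 ± 1.47 in the control array and 1.69 ± 1.69 in the exposed array, and it was not well above background on either. The lowest signals well above background were 5.86 and 7.31 on the respective arrays. Its uncorrected spots, at 59.9 and 61.1, were below their local backgrounds of 66.5 and 64.5. The Dnmt3b difference therefore comes from 1 probe and 1 spot per array. Both probes carry the same transcript name, yet only the downstream one gave a signal. Whether that probe reports Dnmt3b messenger RNA was not tested.

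The size of the Dnmt3b difference depended on how background was removed. Before any correction its downstream spot read 183 in the control array and 108 in the exposed array, over local backgrounds of 66.5 and 65. The ratio of these uncorrected values was 1.70. Without background correction the scaled log2 difference was -0.84, and with normexp correction, which models signal and background jointly and adds an offset of 50, it was -0.86. Both are lower in the exposed array but within 2-fold, so the 2-fold call ended under either. The share of all measured genes at least 2-fold lower also fell, from 2.38% as reported to 0.938% without correction and 0.917% with normexp.

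Probes that the array carries in several copies show how far single spots scatter at this brightness. Among 46 repeatedly spotted probes within 0.5 log2 of the mean signal of Dnmt3b, the SD of the between-array difference over spots had a median of 0.12 and a maximum of 0.22. The Dnmt3b difference was 12.5 times that median. This error covers spotting and scanning on the slide and says nothing of animals.

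Differences of that size were also present in other genes of like signal. Calls here use a threshold of 2-fold on size alone, without a test. Among all 14175 measured named genes, 3.37% passed it upward after dexamethasone and 2.38% passed it downward. Among 1143 genes within 0.5 log2 of the mean signal of Dnmt3b, 62 (5.42%) passed it downward and also 62 upward. In that group 26 genes (2.27%), Dnmt3b included, were as low as Dnmt3b or lower, and 60 (5.25%) were as far from 0 in either direction. With provisional names such as LOC or RGD numbers left out, the 3 genes nearest to it in scaled log2 values were Vof16, Spag11bl and Gnrh1. Their log2 differences were -1.39, -1.43 and -1.45, and Gnrh1 encodes gonadotropin-releasing hormone. As they were chosen for like values on both arrays, like differences and a like response to background settings follow from the choice. Like Dnmt3b, all 3 came within 2-fold with normexp correction (-0.76, -0.75 and -0.79) and without background correction (-0.79, -0.77 and -0.82). Their distances from Dnmt3b were 0.066 to 0.078 log2 units, over 2 arrays only.

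The named genes followed beside Dnmt3b on rn4 chromosome 3 lay within 2-fold. Commd7, 61.1 kb before the upstream probe, had a log2 difference of 0.07, and Asxl1, a Polycomb-associated chromatin gene farther before it, was at -0.24. Mapre1, which encodes a microtubule end-binding protein 79.7 kb after the downstream probe, was at 0.25, and Efcab8 beyond it at 0.08. These are the 2 nearest genes on each side with provisional names left out, so nearer genes under such names may have been passed over. Each was well above background on both arrays, and none shared the difference seen for Dnmt3b.

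**Figure D2:**
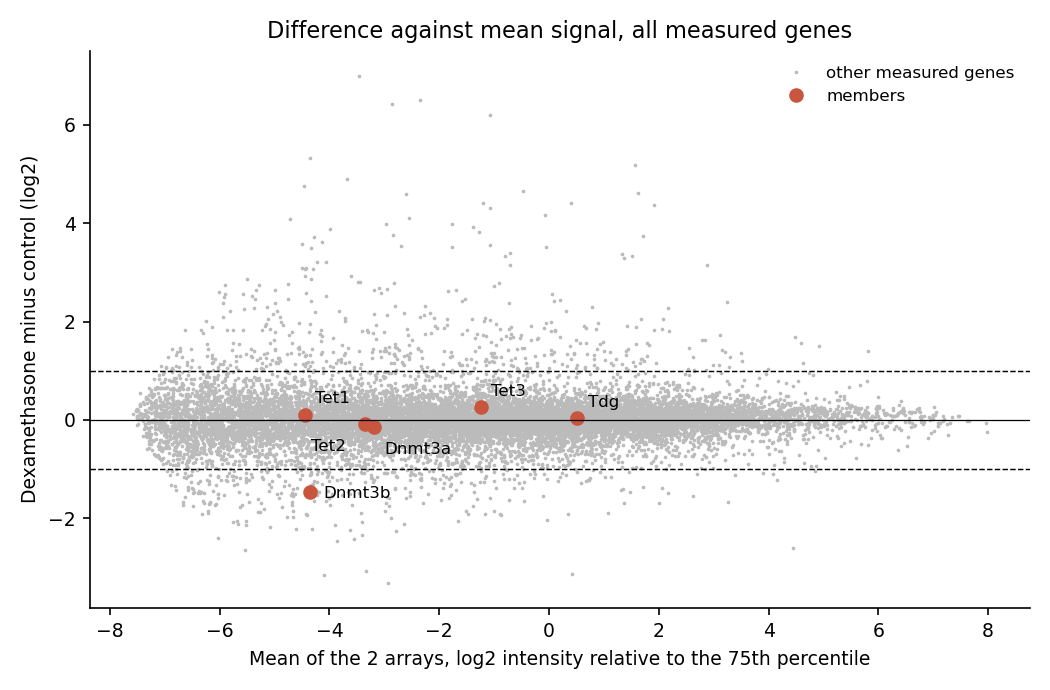
Log2 difference (dexamethasone minus control) against the mean scaled log2 intensity of the 2 arrays for 14175 named genes measured on both (grey), with the 6 measured members in red. Dashed lines mark 2-fold; Dnmt3b at -1.47 lies beyond the lower line, and the other 5 members lie between -0.14 and 0.27.

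Dnmt3a, the other de novo methyltransferase, differed little between the arrays. Its probe (NM_001003958, chr6:26878369-26878428) read 161 ± 16.2 in the control and 155 ± 15.6 in the exposed array. The scanner errors of the spots overlapped, and the scaled log2 difference was -0.14 with a combined error of 0.20. Whether Dnmt3a and Dnmt3b differed in their response could not be tested with 1 array per group; their log2 differences were -0.14 and -1.47.

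The maintenance enzymes and the germ-cell cofactor could not be read. Dnmt1 (NM_053354, chr8:19926995-19927054) gave 1.37 in the control and 1.54 in the exposed array. Uhrf1 (NM_001008882, chrUn:25453160-25454463) gave 5.04 and 4.86, and Dnmt3l (NM_001003964, chr20:10958964-10959023) gave 3.84 and 6.61. None of these 6 spots was well above background. These probes give no fold, and for Dnmt1, which brain cells express, they show only that this probe did not reach the detection limit on either array. The coordinates of the Uhrf1 probe span 1304 bases for its 60 bases of sequence.

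The TET dioxygenases lay close to equality. Tet1 (NM_001107643, chr20:25131296-25131355) read 62.2 ± 6.36 in the control and 69.7 ± 7.13 in the exposed array, a scaled log2 difference of 0.09. Its spots differed by less than the combined scanner error of 0.21. Among 44 repeatedly spotted probes of like signal the median spot SD was 0.12, which is also larger than the difference.

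The overlapping Tet2 probes gave nearly the same reading. The first read 142 ± 14.2 and 140 ± 14.1 in the control and exposed arrays, and the second 134 ± 13.5 and 128 ± 12.9. Scaled log2 differences were -0.09 and -0.14. Both were smaller than the combined scanner errors, 0.205 and 0.206. As the probes share 29 bases and the same RNA, they are not independent measurements.

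Tet3 had the largest positive difference among the members. Its brighter probe (ENSRNOT00000031312, chr4:117621991-117622050) read 539 ± 53.9 in the control and 684 ± 68.4 in the exposed array. The signal was 1.21-fold higher after scaling, a log2 difference of 0.27, or 5.81 times the median spot SD of 177 repeated probes of like signal but 1.32 times the combined scanner error. Its other probe (ENSRNOT00000031521, chr4:117584032-117584091), 37899 bases away, read 7.16 ± 1.52 and 7.97 ± 1.71. That pair of spots was just above the lowest signals well above background, 5.86 and 7.31. The difference was 0.08 against a combined scanner error of 0.44.

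Tdg, the glycosylase that acts after TET oxidation, was bright and nearly equal. Its probe (NM_053729, chr7:23300450-23300509) read 1978 ± 198 in the control and 2142 ± 214 in the exposed array. The scaled log2 difference was 0.04, or 1.14 times the median spot SD of 0.035 for probes of like signal. The array also carries a probe for a transcript described as similar to Tdg; it shared 0 runs of 12 bases with the Tdg probe and was not well above background on either array, at 1.42 and 3.75.

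By the 2-fold threshold, 1 of the 6 measured members was lower and 0 were higher, beside 2.38% and 3.37% of all measured genes. A 1.5-fold threshold left these counts at 1 and 0, beside 7.52% and 7.3%. The count of 1 is Dnmt3b alone. The other 5 lay within 1.21-fold, 3 of the 6 differences were above 0 and 3 below, and the median was -0.02 against 0.01 over all measured genes. The 6 members passed a filter that needs signal on both arrays, and the 3 that did not pass are not part of these values.

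**Figure D3:**
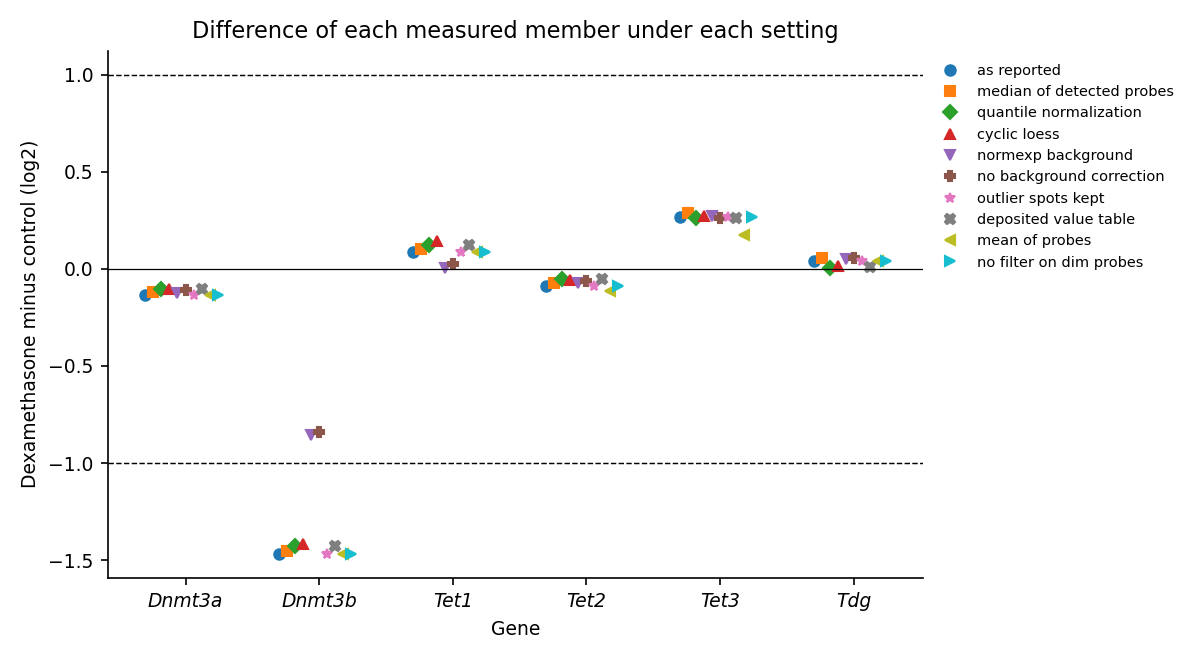
Log2 difference (dexamethasone minus control) of each of the 6 measured members as reported and under 9 other settings for scaling, background, spots and probes. Dashed lines mark 2-fold; Dnmt3b moves from -1.47 to -0.86 and -0.84 under the normexp and uncorrected settings, and the sign of no member changes over the 10 settings.

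Markers of the nucleus and of neighbouring regions differed between the 2 arrays. Hormone genes listed as markers of the nucleus, though not confined to it, were well above background on both arrays. Avp (vasopressin) read 3464 in the control and 970.3 in the exposed array, Oxt (oxytocin) 1455 and 587.4, and Crh (corticotropin-releasing hormone) 230.2 and 636.3. Sim1, a factor that specifies the nucleus, was dim at 14.1 and 12.0, and Otp was well above background in the exposed array alone. The 13 measured markers of cortex, hippocampus and striatum were all higher after dexamethasone, 10 of them past 2-fold, and their summed intensity was 4981 in the control and 26513 in the exposed array. Log2 differences among those past 2-fold were Neurod2 (4.66), Neurod6 (4.41), Bcl11b (4.32), Lamp5 (3.59), Emx1 (2.08), Slc17a7 (1.95), Rasgrf2 (1.93) and Drd2 (1.03); Tbr1 was well above background in the exposed array alone.

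Of 11 thalamic markers, 10 were lower in the exposed array, with a summed intensity of 158040 against 92320. Gbx2 (-1.19), Prkcd (-1.03) and Slitrk6 (-1.02) were past 2-fold downward, and Lhx2, which is also a cortical gene, was past it upward (1.06). Blood markers were 3 of 3 higher, with Hbb, a beta-globin gene, 2.83-fold and Alas2, which acts in haem synthesis of red cells, 2.74-fold higher, and their summed intensity was 25442 against 75782. Sst, the somatostatin gene, was listed among the markers of the paraventricular nucleus and was at 1.41. Of the 7 measured genes in that list, 2 were past 2-fold higher (Sst and Crh) and 2 lower (Avp and Oxt). No marker of neurons in general, astrocytes, oligodendrocytes, their precursors, microglia, endothelium or choroid plexus was past 2-fold, with list medians from -0.08 to 0.31. The part of these differences in the Dnmt3b value was not tested. In RNA of whole tissue, fewer cells of a type and less RNA per cell cannot be told apart.

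The wider methylation machinery was described through lists of genes around the members. In all, 95 of 114 listed genes were measured on both arrays, of which 1 passed 2-fold upward and 2 passed it downward (1.05% and 2.11%, against 3.37% and 2.38% of all measured genes). Their median was 0.01, as over all measured genes. The 2 genes past 2-fold downward were Dppa3 and Mael and the 1 upward was Piwil2, and 8 of the 10 settings kept the call for Mael and for Piwil2, against 3 of 10 for Dppa3.

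Values in parentheses after a gene are scaled log2 differences. A list joined readers of methylcytosine with genes of the methyl-CpG-binding domain family, not all of which bind methylcytosine. Of its 11 genes, 8 were measured and none passed 2-fold, with a median of 0.02. Mbd3 (0.27) and Mbd2 (0.16), which belong to NuRD repressor complexes, were highest. Mbd6 read 966 in the control and 635 in the exposed array (-0.68), and Uhrf2, the paralog of Uhrf1, read 2356 and 1905 (-0.38). Zbtb33, a zinc finger reader of methylated DNA, was well above background in the control array alone, at 7.43 there and 5.82 in the exposed array.

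Partners of the methyltransferases had a median of 0.01 (-0.01 to 0.03 over the settings) over 14 measured of 15, with 1 at least 2-fold lower. That gene was Dppa3, which protects methylation in the early embryo: its brighter probe read 81.2 in the control and 42.7 in the exposed array, just past 2-fold, and its dimmer one was at -0.60. Suv39h1, a histone H3 lysine 9 methyltransferase, was at -0.84 on its brightest probe but at 0.53 on another measured probe. Ctcf, an insulator protein whose binding is sensitive to methylation, and Ehmt1, another histone methyltransferase, were highest at 0.21 and 0.16.

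Genes of base excision repair, not all of which act on products of TET oxidation, differed little. Of 13 base excision repair genes, 11 were measured, none passed 2-fold, and the median was 0.10. That median had no stable sign: it was -0.07 with normexp correction, 0.02 without background correction and -0.06 without the filter on dim probes, where 1 of 13 genes was past 2-fold downward. Ogg1, an 8-oxoguanine glycosylase (0.33), and Ung, a uracil glycosylase (0.22), were highest, and the DNA ligase Lig1 (-0.32) and the glycosylase Nthl1 (-0.24) lowest. Ung turned to -0.07 with normexp correction. Neil3 was well above background in the control array alone (9.39 against 4.14 in the exposed array).

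Deaminases and the Gadd45 genes, which have been tied to active demethylation, were all above 0 as reported. Of the 4 followed through the other settings (Apobec2, Apobec3, Gadd45b and Gadd45g), Apobec3 changed sign in 1. Of 6 measured genes of 7, none passed 2-fold, and the median was 0.26 against 0.01 over all measured genes. Apobec2 read 76.7 in the control and 161 in the exposed array and stood just within 2-fold at 0.99, with a range of 0.60 to 1.03 over the settings, 4 of which put it past 2-fold. Gadd45b, an activity-induced gene, read 977 and 1553 (0.59). Gadd45g (0.18) and Apobec3 (0.15) were lowest in the list, where Apobec3 was at -0.02 without background correction.

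Cofactors and regulators of the TET enzymes had a median of -0.09 over 12 measured genes of 13. Ogt, the O-GlcNAc transferase that binds TET proteins, read 4487 in the control and 2611 in the exposed array (-0.86). Its other probe read 781 and 425 (-0.95), so both were lower by nearly the same amount. Over the 10 settings Ogt ranged from -0.90 to -0.83 and never passed 2-fold. Kdm2b, a CXXC-domain protein of unmethylated CpG islands, was at -0.52. Idh2 and Idh3b, which encode isocitrate dehydrogenase proteins of enzymes that make the TET co-substrate 2-oxoglutarate, were highest at 0.24 and 0.14. Slc23a1, a transporter of ascorbate, which supports TET activity, was well above background in the exposed array alone (5.50 in the control against 20.5).

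The cycle that supplies the methyl donor S-adenosylmethionine had a median of 0.12 (0.02 to 0.13 over the settings), with none of 16 measured genes past 2-fold. Mat2a, which makes S-adenosylmethionine outside the liver, read 373 in the control and 277 in the exposed array (-0.50), and its other probe 330 and 190 (-0.87). Gnmt, which consumes that donor, was at -0.31. Shmt1, a folate-cycle hydroxymethyltransferase, was at 0.71, and at 0.24 at the low end of its range over the settings. Cbs, which diverts homocysteine from remethylation, was at 0.39. Mat1a, the liver isoform of the donor synthase, was not well above background on either array.

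Relatives that methylate RNA were all below 0 as reported, with 1 change of sign among the settings (Mettl14), and had a median of -0.15 over 4 genes. Trdmt1, a relative of the DNA methyltransferases that methylates transfer RNA, read 72.6 in the control and 52.6 in the exposed array (-0.54). Mettl3 and Mettl14, partners in N6-adenosine methylation of messenger RNA, were at -0.17 and -0.00022. Nsun2, a cytosine methyltransferase of RNA, was at -0.12.

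**Figure D4:**
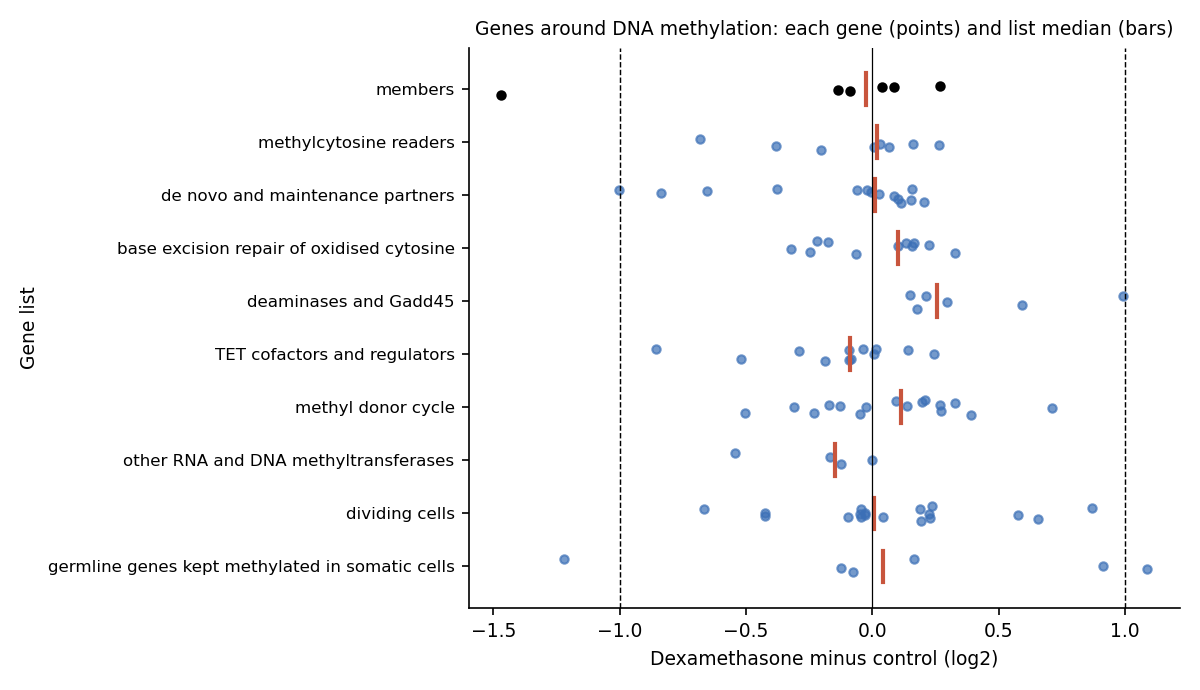
Log2 difference (dexamethasone minus control) of the 6 measured members (black) and of the measured genes in 9 lists around DNA methylation (blue points), with red bars for medians and dashed lines at 2-fold. List medians lie between -0.15 and 0.26, and Dnmt3b at -1.47 is the lowest value shown.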

How the data were processed

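Total RNA of the paraventricular nucleus was amplified and labelled with Cy3, per the labels' protocols. The authors deposited scanner output with a linear intensity for every spot. Feature Extraction 10.7.1.1 made it and probes are placed on rn4, per the file headers; version 9.5.1.1 is the one in the submitters' processing notes. The 0 or 1 detection marks are those of the scanner software. The deposited value table, a linear intensity with a median of 149.7 in both columns, served as an alternative. Its algorithm and centring are unknown, and its differences follow the scanner values (Pearson's r of 0.996 across probes, which are not replicates).

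Spots with an outlier mark were dropped (267 and 249), and 0 were saturated. The log2 of the processed intensity was averaged per probe, and the array's 75th percentile (1402 and 1477 as linear signal) was subtracted. Well above background were 24133 control and 23742 dexamethasone probes. A gene took its brightest probe well above background on both arrays. Probes were named by accession, symbol or older symbol through RefSeq genes of GRCr8, and 9148 unmatched probes were left out of gene counts. For a gene detected on 1 array no fold is given, because the detection mark is not a sharp limit. Undetected signals reached 9.19 in the control and 10.6 in the exposed array, above the lowest detected ones of 5.86 and 7.31. Alternatives used limma 3.58.1 in R 4.3.3. Scaling and the size rule were tested on simulated data. There every probe was set as detected and stood for its own gene. Background correction, the detection filter and the choice of the brightest probe were therefore not tested. The number of arrays limits the precision.

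Named were every member and probe, the 2 highest and 2 lowest measured genes of each list, markers past 2-fold, Avp, Oxt and Crh. Also named were the 3 genes nearest to Dnmt3b, provisional names left out. Other genes were named after their values were seen. Some markers that the rule names are not reported here. Members and lists were chosen with earlier results of these data known.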

Additional observations from a re-analysis of the deposited data

How the results depend on the processing

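The count of members at least 2-fold lower was 0 with normexp background correction and 0 without background correction, against 1 as reported. It stayed at 1, and the count at least 2-fold higher at 0, with the other 7 settings (median scaling, quantile, cyclic loess, outlier spots kept, the deposited value table, the mean of probes, no filter on dim probes) and with a 1.5-fold rule. Dnmt3b ranged from -1.47 to -0.84, Dnmt3a from -0.14 to -0.11, Tet1 from 0.0042 to 0.14, Tet2 from -0.11 to -0.05, Tet3 from 0.17 to 0.29 and Tdg from 0.0068 to 0.06, with no change of sign. Over all measured genes, 58.6% of calls were upward as reported and 68.6% with normexp correction (284 higher and 130 lower, against 478 and 338). Without the filter on dim probes 870 and 732 were called. For the 4 of 12 member probes not well above background on either array, no difference could be measured. The dimmer Tet3 probe passed the detection mark. At 7.16 in the control and 7.97 in the exposed array, it still lay below the highest undetected signals of 9.19 and 10.6. No paired analysis was possible because each group has 1 array.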

Other observations

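Genes whose promoters are normally kept methylated outside the germ line were mostly unread, and the 6 measured of 15 differed in both directions. Piwil2, a PIWI protein of the germ line, read 44.4 and 99.7 in the control and exposed arrays (1.09). Its other probe, at 1.43 and 2.89, was not well above background on either array. Dazl, a germ-cell RNA-binding protein, read 15.7 and 31.2 (0.91), but 11.9 and 13.1 (0.07) on its other probe. Mael, which acts in transposon silencing in germ cells, read 34.0 and 15.4 (-1.22). Brdt, a testis bromodomain gene, was at -0.12 on its brighter probe and 0.52 on the other. With normexp correction neither Piwil2 (0.50) nor Mael (-0.40) passed 2-fold. Ddx4, Sycp1, Sycp3, Stk31, Taf7l, Tdrd1 and Asz1 stayed below the detection mark on both arrays. Hormad1 passed it only after dexamethasone, at 3.26 in the control and 10.4 in the exposed array.

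Genes of dividing cells, in which Dnmt1 and Uhrf1 are typically induced, were measured for 18 of 19 and had a median of 0.01 (-0.03 to 0.08 over the settings) with 9 above and 9 below 0. Top2a, a topoisomerase of proliferating cells, was at 0.87 (0.27 at the low end over the settings). Its other probe, at 5.71 in the control and 5.19 in the exposed array, was not well above background on either. Mcm4, a replicative helicase subunit, was at 0.65 and 0.78 on its probes. Tyms, the thymidylate synthase gene, was at -0.67 and Ccna2, a cyclin, at -0.43 on its brighter probe and 0.02 on the other. None passed 2-fold in either direction.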
